A study of Mus musculus with 24 samples.

Results

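The 32 genes described here encode the unfolded protein response and the folding machinery of the endoplasmic reticulum (ER): chaperones, the lectin cycle, disulfide isomerases, stress sensors and regulators, ER-associated degradation (ERAD) and the translocon. They were chosen by name and by role, with earlier results of these data known. All 32 were found, once each, among the 55385 gene identifiers counted in the mouse hippocampus.

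Hippocampal RNA was sequenced from 24 adult mice of both sexes, in 6 groups of 4. Every mouse was homozygous for floxed *Tsc1* and received tamoxifen. Controls (*Tsc1-Cre-*, strain Tsc1f/f-Tg(Camk2a-CreERT2-)) carried no Cre and were taken on day 8. *Tsc1-Cre+* mice carried Camk2a-CreERT2, a tamoxifen-activated Cre driven in CAMK2A-positive excitatory neurons, and were taken on day 4, 6, 8 or 13. *Tsc1-Cre+*-Rap 4 mice had the same genotype, received 10 mg/kg rapamycin from day 4 and were also taken on day 13. Cells without Camk2a activity keep *Tsc1*, controls were taken on 1 day only, and *Tsc1-Cre-* mice given rapamycin were not analysed here, so the effect of the drug on its own cannot be told apart from its effect on *Tsc1*-deleted mice.

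Total counts ranged from 28208561 to 126435936 per mouse (median 55582027). *Tsc1*, the check of the labels, had a mean of 106 ± 3.26 CPM (SD, n = 4) in controls and group means from 62.7 to 79.0 CPM in *Tsc1-Cre+* mice, without overlap. CPM is a gene's count relative to the library total after scaling by TMM, edgeR's normalization factor. The library names hold number series. Control and day 8 mice share 2 of them, while the remaining groups come from different ones, where time or treatment and series cannot be told apart. In bulk hippocampus, fewer cells of a type and less RNA per cell cannot be told apart either.

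The ER is where secreted and membrane proteins are folded, and most of the proteins described here work in its lumen or membrane. When unfolded proteins accumulate, the sensors IRE1 (encoded by *Ern1*), ATF6 and PERK raise the output of chaperones and degradation factors and lower protein synthesis. IRE1 splices *Xbp1* mRNA into the form that encodes an active transcription factor, a change of splicing that counts per gene do not resolve.

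The genes moved late and unevenly. Genes count as called here if the adjusted p of edgeR's quasi-likelihood test was under 0.05 with a log2 fold change beyond 0.5 in either direction. On day 4, 0 of the 32 genes were called against control, where 0.68% of all tested genes were. On day 6, again 0 were called (all genes, 1.32%). DESeq2 also called 0 on both days, and 6 genes on day 4 and 10 on day 6 had an unadjusted edgeR p under 0.05 (all genes, 18.4% and 24.2%). Without day 6 mouse B, *Derl3* was called lower on day 6 (-0.67). On day 8, 2 of 32 (6.25%) were called, both higher (all genes, 3.99% in either direction). On day 13, 10 of 32 (31.2%) were called, 8 higher and 2 lower (all genes, 16.5%). The median log2 fold change of the 32 genes against control went from -0.01 (day 4) and 0.01 (day 6) to 0.11 (day 8) and 0.25 (day 13), where the median of all tested genes was -0.00, -0.02, -0.03 and -0.04.

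Under rapamycin 23 of the 32 genes had a log2 fold change below 0 against control and 9 above 0 (all genes, 51.4% above 0). In *Tsc1-Cre+*-Rap 4 mice, 1 of 32 genes (3.12%) was called against control, *Sdf2l1*, with a lower level (all genes, 1.41%), and the median log2 fold change was -0.14 (all genes, 0.01). Against day 13 mice, 16 of 32 (50%) were called, 15 lower and 1 higher (all genes, 21.1%), with a median of -0.45 (all genes, 0.02). All of these comparisons with control share the same 4 control mice, and both comparisons with day 13 mice share those.

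**Figure D1:**
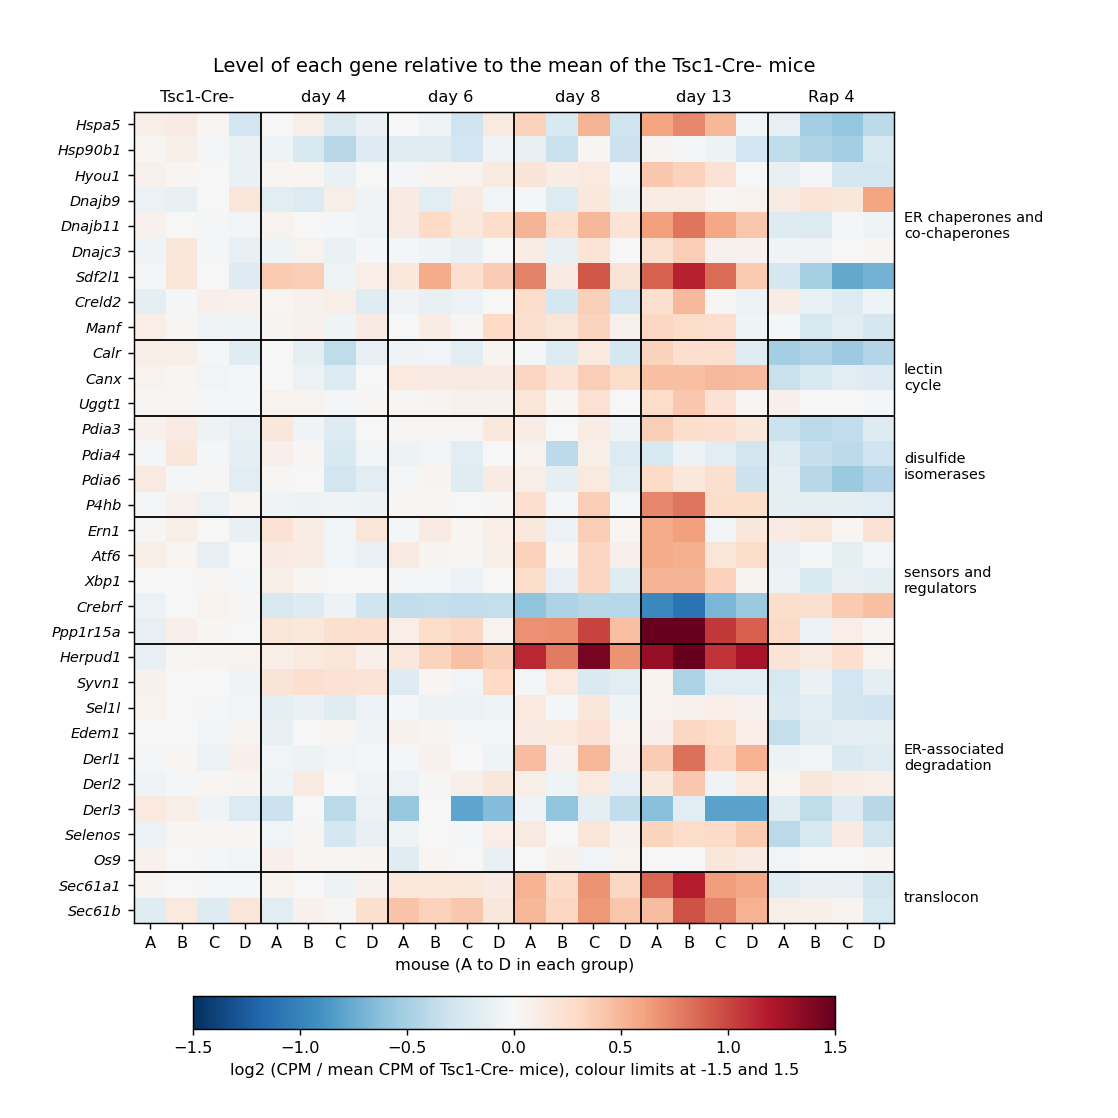
Level of each of the 32 genes (rows, by role) in each of the 24 mice (columns, by group), as the log2 ratio of its CPM to the mean CPM of the 4 control mice. Red is above and blue below control, and ratios past 1.5 in either direction take the end colours; the reddest cells are *Ppp1r15a* in day 13 mice A and B and *Herpud1* in day 13 mouse B, *Crebrf* is blue on days 8 and 13 and red under rapamycin, and most rows of the rapamycin group are pale or blue.

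Promoters were searched for the binding sites through which the pathway is known to act, to show which of these genes carry them. Of the 32 genes, 27 had a promoter in RefSeq's table for mouse build GRCm38.p6 (250 bases before to 50 after the start site). The ER stress element, bound by ATF6 with NF-Y and by XBP1, is CCAAT, then 9 bases, then CCACG. On either strand it was in 9 of the 27 genes (33.3%) and in 39 of 32851 promoters in all (0.119%). ER stress element II, the second form of this site, is ATTGG, then 1 base, then CCACG. It was in 2 of the 27 genes (7.41%), *Herpud1* and *Dnajb11*, and in 12 promoters in all (0.0365%). The sites did not overlap each other. The elements are shown with 5 bases on each side, read on the strand that carries them, with the element in capitals.
*Herpud1* (element II, chr8:94386372-94386392, plus strand, from -52 relative to the start site): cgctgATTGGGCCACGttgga
*Dnajb11* (element II, chr16:22857847-22857867, plus strand, from 7): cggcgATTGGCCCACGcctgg
*Hspa5* (chr2:34772020-34772048, plus strand, from -65): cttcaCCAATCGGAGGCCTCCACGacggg
*Canx* (chr11:50325795-50325823, minus strand, from -145): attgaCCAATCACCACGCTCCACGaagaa
*Calr* (chr8:84847070-84847098, plus strand, from -162): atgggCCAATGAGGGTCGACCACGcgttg
*Hsp90b1* (chr10:86705528-86705556, plus strand, from -107): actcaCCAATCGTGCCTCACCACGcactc
*Hsp90b1* (chr10:86705633-86705661, minus strand, from -212): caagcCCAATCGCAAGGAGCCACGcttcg
*Pdia6* (chr12:17266486-17266514, plus strand, from -98): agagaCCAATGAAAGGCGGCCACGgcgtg
*Dnajc3* (chr14:118937822-118937850, plus strand, from -105): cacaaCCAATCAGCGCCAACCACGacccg
*Creld2* (chr15:88819515-88819543, minus strand, from -126): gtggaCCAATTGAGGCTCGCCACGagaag
*Syvn1* (chr19:6046527-6046555, plus strand, from -44): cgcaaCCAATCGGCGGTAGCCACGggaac
*Derl3* (chr10:75893237-75893265, minus strand, from -156): gctagCCAATGGGGAAGTCCCACGgtaga

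Beside its element II, *Herpud1* held the C/EBP-ATF composite site (TGATG, then 1 base, then AA), at which ATF4 and CHOP can bind, on its minus strand. This site was in 1 of the 27 genes (3.7%) and in 3.97% of all promoters. The unfolded protein response element TGACGTGG was in 0 of the 27 genes and in 0.676% of all promoters. A match is a description of these letters and not evidence of binding. The 180 bases before the start sites of 2 genes are printed with every such site in capitals. They are *Herpud1*, the gene with the largest rise on day 8, and *Canx*, with the highest control mean of the 32.
*Herpud1* (chr8:94386249-94386428, plus strand): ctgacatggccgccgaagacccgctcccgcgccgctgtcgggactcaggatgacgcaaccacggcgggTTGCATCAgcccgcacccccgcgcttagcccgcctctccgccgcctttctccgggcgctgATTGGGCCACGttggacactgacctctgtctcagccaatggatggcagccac
*Canx* (chr11:50325674-50325853, minus strand): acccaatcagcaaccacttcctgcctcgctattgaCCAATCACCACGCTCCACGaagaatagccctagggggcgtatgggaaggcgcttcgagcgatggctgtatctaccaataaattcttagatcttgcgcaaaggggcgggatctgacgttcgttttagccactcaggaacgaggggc

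In control mice the 32 genes spanned a wide range of levels per length of transcript. As mean RPKM (CPM per kilobase of merged exon), *Canx* (calnexin) was at 84.4 ± 2.77 (SD, n = 4) and *Calr* (calreticulin) at 78.4 ± 6.87. These 2 neighbours in the order did not differ beyond their spread. *Hsp90b1* and *Hspa5* followed at 44.6 ± 2.42 and 44.4 ± 5.56 RPKM, also within their spread, and then *Pdia3* at 34.4 ± 2.76 RPKM. At the low end were *Ern1* at 2.78 ± 0.157, *Ppp1r15a* at 2.42 ± 0.146 and *Derl3* at 1.22 ± 0.131 RPKM, each apart from its neighbours by more than their SDs. The genes with the largest rises, *Ppp1r15a* and *Herpud1*, were thus the second lowest and, at 11.6 ± 0.641 RPKM, in the middle of the order.

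Among the 9 ER chaperones and co-chaperones, 2 rose on day 13, *Sdf2l1* and *Dnajb11*, and 0 fell (22.2% called; all genes, 16.5% in either direction, a share that holds for every role that follows). Both are co-chaperones of the HSP70-type chaperone BiP, encoded by *Hspa5*. *Sdf2l1* measured 5.40, 6.19, 5.47 and 4.80 CPM in control mice A to D, 9.12, 5.97, 10.5 and 6.23 CPM on day 8, and 10.1, 12.1, 9.75 and 7.16 CPM on day 13. On day 8, mice A and C lay well above every control mouse, mouse D just above and mouse B among them, while on day 13 all 4 mice lay above. On days 4 and 6 it ranged from 5.24 to 7.19 and from 6.105 to 8.03 CPM. The log2 fold change against control was 0.55 on day 8 (standard error 0.179, edgeR adjusted p = 0.0686; called by DESeq2 at 0.56, adjusted p = 0.0165, and by edgeR on all 24 mice, adjusted p = 0.0370) and 0.85 on day 13 (standard error 0.158, edgeR adjusted p = 0.00504).

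Under rapamycin *Sdf2l1* measured 4.58, 3.86, 3.21 and 3.35 CPM, below all control mice. It was the gene called lower than control (log2 fold change -0.54, edgeR adjusted p = 0.0405). This call was lost when any of control mice A, B and C or rapamycin mice B, C and D was left out, with edgeR adjusted p from 0.0754 to 0.109. Against day 13 mice it was -1.40 (edgeR adjusted p = 7.66e-04), the second largest fall of the 32 genes in that comparison.

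*Dnajb11* (ERdj3) rose in smaller steps. It measured 35.2, 33.8, 33.3 and 32.9 CPM in controls, 36.7, 41.5, 37.7 and 40.8 CPM on day 6, 47.9, 40.3, 47.7 and 38.9 CPM on day 8 and 51.7, 59.1, 50.5 and 44.6 CPM on day 13. From day 6 on, every *Tsc1-Cre+* mouse without rapamycin lay above every control mouse. The log2 fold change was 0.21 on day 6 (edgeR adjusted p = 0.0160), 0.38 on day 8 (0.00860, edgeR adjusted p) and 0.62 on day 13 (0.00116, edgeR adjusted p), and only the last passed the size threshold. Rapamycin mice, at 29.4 to 33.4 CPM, overlapped the controls.

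*Hspa5* itself, the BiP gene whose mRNA is the usual readout of the pathway, was not called in any comparison with control. It measured 201, 205, 192 and 154 CPM in controls, 239, 160.1, 268 and 152 CPM on day 8, 282, 309, 265 and 183 CPM on day 13 and 172, 130.5, 125 and 143 CPM under rapamycin. Mice A and C of day 8 and mice A, B and C of day 13 lay above all controls, and day 13 mouse D lay inside the control range. The log2 fold change was 0.13 on day 8 (edgeR adjusted p = 0.655) and 0.47 on day 13 (standard error 0.150, edgeR adjusted p = 0.0421). Without day 13 mouse D it was 0.61 and called (edgeR adjusted p = 0.00365), while in the 7 other fits that left out a mouse the adjusted p was 0.05 or more. Rapamycin mice were lower than day 13 mice by -0.87 (edgeR adjusted p = 0.00302), with no overlap.

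The other 6 chaperone genes were called neither on day 8 nor on day 13. *Hsp90b1* (GRP94) had lower means than control at each time point: its mean was 179.9 ± 9.78 CPM in controls, 155 ± 15.2 CPM on day 4 and 159.6 ± 10.8 CPM on day 6 (log2 fold change -0.18, edgeR adjusted p = 0.0437, or 0.05 and more in 6 of the 8 fits that left out a mouse). Its mean was 159 ± 19.2 CPM on day 8 and 169.8 ± 16 CPM on day 13 (log2 fold change -0.07, edgeR adjusted p = 0.504). *Hyou1* (GRP170) had a mean of 122 ± 6.15 CPM in controls and 145 ± 17.4 CPM on day 13 (0.26, edgeR adjusted p = 0.0515). The co-chaperone genes *Dnajb9* (ERdj4) and *Dnajc3* (P58IPK), *Creld2* and *Manf*, both secreted ER stress proteins, had day 13 log2 fold changes from 0.09 to 0.21, with edgeR adjusted p from 0.112 to 0.493. *Dnajb9* was the 1 chaperone gene with a higher mean under rapamycin than on day 13, at 19.4 ± 3.06 against 16.8 ± 0.548 CPM, a difference without overlap between the mice that did not pass the test (edgeR adjusted p = 0.208).

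In the lectin cycle calnexin and calreticulin hold glycoproteins until they are folded, and UGGT1 re-glucosylates those that are not. It had 0 of 3 genes called on day 8 (all genes, 3.99%) or day 13. Under rapamycin 2 of 3 were called lower than on day 13 (all genes, 21.1% called). *Canx* had little spread between mice. Its mean was 396 ± 13.0 CPM in controls and 377 ± 24.8 CPM on day 4. On day 6 it was 433 ± 3.59, on day 8 486 ± 23.7, and by day 13 547 ± 6.72 CPM. From day 6 on the lowest of these mice, at 429.8 CPM, lay above the highest control at 411 CPM. The day 13 log2 fold change of 0.48 stayed under the size threshold (standard error 0.0578, edgeR adjusted p = 9.04e-04). Under rapamycin *Canx* was at 338 ± 17.5 CPM, below all controls (-0.22, edgeR adjusted p = 0.0352) and below day 13 mice by -0.71 (edgeR adjusted p = 2.42e-04).

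*Calr* was at 226 ± 19.8 CPM in controls and 256 ± 38.6 CPM on day 13, which overlapped (log2 fold change 0.19, edgeR adjusted p = 0.240). Under rapamycin it was at 161 ± 5.55 CPM, with its highest mouse at 167 and the lowest control at 199 CPM. That difference of -0.48 had an edgeR adjusted p of 0.00145, the smallest of the 32 genes against control, and stayed just under the size threshold. Without control mouse D (-0.53) or rapamycin mouse D (-0.50) it was called. *Uggt1* had a day 13 log2 fold change of 0.24 (edgeR adjusted p = 0.0404), with mouse D at 103 CPM among the controls, which lay between 101 and 103 CPM.

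Of the 4 disulfide isomerases, which form and rearrange disulfide bonds, *P4hb* (PDI) rose on day 13. It measured 82.2, 86.8, 77.8 and 84.8 CPM in controls, 99.0, 82.2, 107 and 81.6 CPM on day 8, 137, 145, 99.3 and 99.7 CPM on day 13 and 75.7, 75.6, 75.5 and 73.7 CPM under rapamycin. Day 8 mice A and C lay above the controls and mice B and D among them, and all 4 day 13 mice lay above. The day 13 log2 fold change was 0.54 (standard error 0.119, edgeR adjusted p = 0.0104) and fell under the size threshold without day 13 mouse A (0.48) or B (0.46). Under rapamycin it was lower than on day 13 by -0.68 (edgeR adjusted p = 0.00268).

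The other 3 isomerases were not called against control. *Pdia3* (ERp57), the partner of the lectins, had a mean of 108 ± 8.68 CPM in controls, 129.7 ± 7.02 CPM on day 13 (log2 fold change 0.28, edgeR adjusted p = 0.0242) and 86.6 ± 5.45 CPM under rapamycin (-0.31 against control, edgeR adjusted p = 0.0193). *Pdia4* (ERp72) had a day 13 difference of -0.18 (edgeR adjusted p = 0.130) and *Pdia6* of 0.12 (edgeR adjusted p = 0.504). Under rapamycin *Pdia4* was at -0.29 and *Pdia6* at -0.37 against control (edgeR adjusted p = 0.0362 and 0.0223), both under the size threshold. *Pdia3* and *Pdia6* were called lower than on day 13, the latter at -0.50, a call lost in 5 of the 8 fits that left out 1 mouse.

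Among the 5 sensors and regulators, 1 rose and 1 fell on day 13. *Ppp1r15a* encodes GADD34, the phosphatase subunit that reverses the phosphorylation of eIF2alpha and restores translation. It measured 6.51, 7.52, 7.27 and 7.18 CPM in controls, 8.09, 7.92, 8.41 and 8.47 CPM on day 4, and 7.65, 8.63, 8.79 and 7.37 CPM on day 6. It then measured 11.5, 11.6, 14.4 and 9.70 CPM on day 8 and 27.5, 34.1, 14.9 and 13.3 CPM on day 13. Mice A and B of day 13 stood well above mice C and D, and all mice of both days lay above all controls. Its log2 fold change was 0.73 on day 8 (standard error 0.118, edgeR adjusted p = 0.00310) and 1.66 on day 13 (standard error 0.269, edgeR adjusted p = 0.00283), or 3.17-fold, the largest of the 32. In rapamycin mice it measured 8.67, 6.71, 7.62 and 7.23 CPM, overlapping the controls, and was lower than on day 13 by -1.58 (edgeR adjusted p = 0.00268). *Ppp1r15a* shares exon sequence with *Tulp2* on the opposite strand.

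*Crebrf* encodes a factor that binds CREB3 and promotes its degradation, so it acts as a negative regulator in ER stress. It measured 146, 155, 161 and 156 CPM in controls, 131, 135, 147 and 125.5 CPM on day 4, and 119, 121, 119 and 120.3 CPM on day 6. It measured 102, 112, 116 and 115 CPM on day 8 and 79.4, 71.9, 95.7 and 105 CPM on day 13. In rapamycin mice it measured 186, 182, 203 and 212 CPM. From day 6 on every *Tsc1-Cre+* mouse without rapamycin was below every control mouse, and every rapamycin mouse was above.

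The log2 fold change of *Crebrf* against control was -0.20 on day 4 (edgeR adjusted p = 0.0417), -0.37 on day 6 (3.57e-05, edgeR adjusted p) and -0.47 on day 8 (6.07e-04, edgeR adjusted p). These were under the size threshold, which it passed on day 13 at -0.80 (standard error 0.121, edgeR adjusted p = 0.00214). Under rapamycin it was 0.35 above control (edgeR adjusted p = 0.00553) and 1.14 above day 13 (standard error 0.126, edgeR adjusted p = 4.70e-04). *Crebrf* was 1 of 2 genes with an adjusted p under 0.05 on day 4, the other being *Syvn1*. The day 4 value rests on a small difference: the adjusted p was 0.05 or more in 6 of the 8 fits that left out a mouse and 0.430 in a fit of all 24 mice.

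The sensors *Ern1* and *Atf6* and the factor *Xbp1* had values above control in some day 8 and most day 13 mice and were not called. *Xbp1* measured 49.2, 49.2, 49.8 and 48.8 CPM in controls, 59.3, 45.1, 61.6 and 43.5 CPM on day 8 and 69.9, 70.1, 62.7 and 50.5 CPM on day 13. Day 8 mice A and C were above the narrow control range and B and D below it. The day 13 log2 fold change was 0.37 (standard error 0.0954, edgeR adjusted p = 0.0198).

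*Atf6* measured 145, 139, 125 and 135 CPM in controls, 173, 137, 170.1 and 144 CPM on day 8 and 199.6, 198, 154 and 165 CPM on day 13 (log2 fold change 0.40, edgeR adjusted p = 0.0109). *Ern1* measured 23.1, 24.1, 22.8 and 21.01 CPM in controls, 25.5, 21.3, 29.4 and 23.3 CPM on day 8 and 33.3, 34.8, 22.1 and 25.5 CPM on day 13 (0.36, edgeR adjusted p = 0.0729). Day 13 mice A and B were the highest for both genes. For *Ern1* day 13 mouse C lay among the controls. On days 4 and 6 and under rapamycin, group means were 48.0 to 50.1 and 44.8 CPM for *Xbp1*, 139 to 143 and 129 CPM for *Atf6*, and 23.7 to 24.7 and 24.9 CPM for *Ern1*. Of these 3 genes *Xbp1* was called lower under rapamycin than on day 13 (-0.51, edgeR adjusted p = 0.00581). The size fell under the threshold with the replicate block and without day 13 mouse A or B or rapamycin mouse B (-0.50 to -0.47), while *Atf6*, at -0.48, passed it without day 13 mouse C (-0.55) or D (-0.52).

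ERAD returns misfolded proteins to the cytosol for destruction. Of its 9 genes, 2 rose and 1 fell on day 13. *Herpud1* encodes HERP, a membrane scaffold of the ERAD ubiquitin ligase. It measured 24.9, 27.6, 27.97 and 28.1 CPM in controls, 28.7, 30.1, 30.7 and 28.7 CPM on day 4, and 30.3, 34.1, 36.8 and 34.6 CPM on day 6. On day 8 it measured 59.3, 46.5, 72.5 and 43.1 CPM and on day 13 67.1, 93.7, 57.5 and 63.7 CPM. All 4 mice of every one of these groups lay above all controls. In rapamycin mice it measured 31.0, 29.8, 32.3 and 28.03 CPM, next to the controls, with the lowest of them overlapping.

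The log2 fold change of *Herpud1* was 0.12 on day 4 (edgeR adjusted p = 0.243), 0.32 on day 6 (edgeR adjusted p = 0.00621), 1.04 on day 8 (standard error 0.140, edgeR adjusted p = 0.00129) and 1.38 on day 13 (standard error 0.130, edgeR adjusted p = 3.55e-04). It thus had the largest rise on day 8, 2.05-fold, and the second largest on day 13. The day 6 adjusted p stayed under 0.05 in every fit that left out a mouse. A fit of all 24 mice gave 0.276 (edgeR adjusted p). From day 6 to day 8 the difference was 0.71 (edgeR adjusted p = 0.0570). Rapamycin mice were lower than day 13 mice by -1.23 (standard error 0.132, edgeR adjusted p = 4.17e-04).

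*Derl1*, which encodes a channel protein of ERAD, measured 62.0, 64.8, 59.8 and 66.7 CPM in controls, 87.5, 66.3, 89.7 and 66.9 CPM on day 8 and 82.2, 112, 79.0 and 91.1 CPM on day 13. Again day 8 mice A and C were high and B and D at the control level, and all day 13 mice were above. The day 13 log2 fold change was 0.53 (edgeR adjusted p = 0.00498), or 0.43 without day 13 mouse B. It measured 54.4 to 61.7 CPM under rapamycin, which overlapped the controls and was -0.66 against day 13 (edgeR adjusted p = 0.00180).

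*Derl3*, a related gene with the lowest level of the 32, measured 2.701, 2.58, 2.36 and 2.11 CPM in controls and 1.58, 2.18, 1.39 and 1.40 CPM on day 13, where mouse B overlapped the controls. Its log2 fold change of -0.55 (edgeR adjusted p = 0.0454) lost its call in every fit that left out a mouse, except the one without day 13 mouse B, and with DESeq2 size factors, without the filter on low counts, with the replicate block and with *Ttr* as a covariate. It measured 2.35, 1.62, 2.22 and 1.88 CPM on day 8, also overlapping.

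The 6 remaining ERAD genes were not called against control. *Selenos* (VIMP), which tethers the extraction machinery, had a mean of 18.5 ± 0.688 CPM in controls and 23.1 ± 0.870 CPM on day 13, without overlap (log2 fold change 0.33, edgeR adjusted p = 0.0123). *Edem1*, which guides glycoproteins to degradation, was at 0.21 (edgeR adjusted p = 0.0583), also without overlap. *Sel1l*, the partner of the ubiquitin ligase, *Derl2* and the lectin gene *Os9* had day 13 log2 fold changes of 0.08, 0.18 and 0.08, with edgeR adjusted p from 0.146 to 0.385. *Syvn1*, the gene of the ligase HRD1 itself, was at 27.95 ± 0.533 CPM on day 4 against 24.02 ± 0.851 CPM in controls (0.22, edgeR adjusted p = 0.0256) and at 21.2 ± 3.12 CPM on day 13 (-0.17, edgeR adjusted p = 0.302). Its day 4 adjusted p was 0.05 or more in 6 of the 8 fits that left out a mouse and 0.475 in a fit of all 24 mice. It shares exon sequence with *Mrpl49* on the opposite strand. Under rapamycin *Sel1l* was below all controls (-0.23, edgeR adjusted p = 0.0187), and *Selenos* was called lower than on day 13 (-0.51, edgeR adjusted p = 0.0102). That call was lost without day 13 mouse D or rapamycin mouse A, B or D and with *Ttr* as a covariate, where the difference ran from -0.49 to -0.45.

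Both translocon genes rose on day 13. The Sec61 channel carries new proteins into the ER, and *Sec61a1* encodes its pore. *Sec61a1* measured 50.4, 49.2, 48.0 and 48.6 CPM in controls, 54.7, 54.8, 54.9 and 53.3 CPM on day 6, 70.5, 60.1, 78.4 and 61.0 CPM on day 8 and 89.1, 111, 76.0 and 73.6 CPM on day 13. The day 6 mice lay in a narrow band just above the controls, and the later groups lay above that. The log2 fold change was 0.15 on day 6 (edgeR adjusted p = 0.0181), 0.47 on day 8 (edgeR adjusted p = 0.00438) and 0.84 on day 13 (standard error 0.111, edgeR adjusted p = 0.00118). Rapamycin mice measured 43.4, 45.5, 44.9 and 40.7 CPM, below all controls (-0.16, edgeR adjusted p = 0.0992) and -1.01 against day 13 (edgeR adjusted p = 5.35e-04).

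*Sec61b*, a small channel subunit, measured 6.38, 8.04, 6.32 and 8.22 CPM in controls, 9.71, 9.18, 9.58 and 8.14 CPM on day 6, 10.2, 9.002, 11.4 and 9.67 CPM on day 8 and 9.98, 14.1, 12.1 and 10.4 CPM on day 13. All mice of days 8 and 13 lay above the controls. Its log2 fold change was 0.48 on day 8 (edgeR adjusted p = 0.0221) and 0.69 on day 13 (standard error 0.143, edgeR adjusted p = 0.00796). At 6.11 to 7.70 CPM, rapamycin mice overlapped the controls (0.01, edgeR adjusted p = 0.984).

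**Figure D2:**
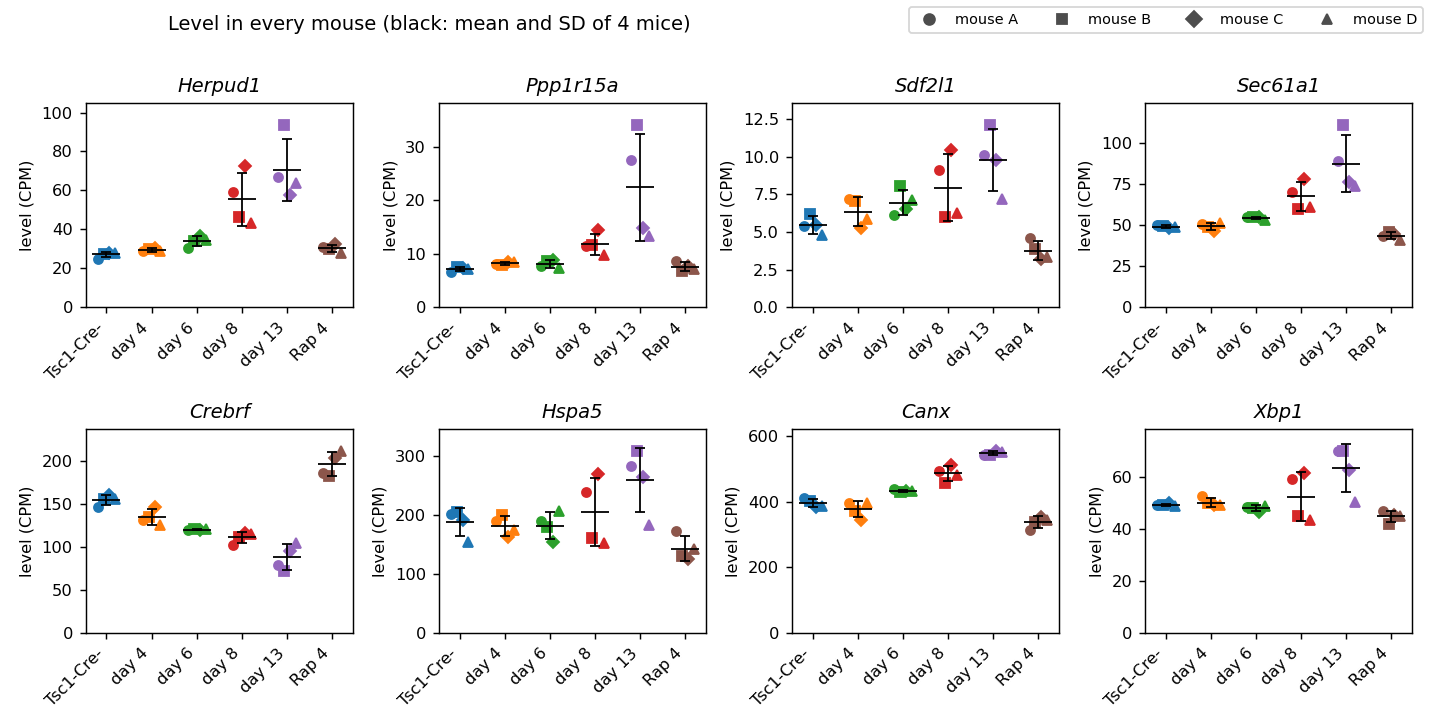
Level in CPM of 8 of the genes in every mouse, by group, with the mean and SD of 4 mice in black and a marker shape for each mouse letter. *Herpud1*, *Ppp1r15a*, *Sdf2l1* and *Sec61a1* climb on days 8 and 13; under rapamycin *Sdf2l1* and *Sec61a1* sit below all controls, and *Herpud1* (30.3 CPM) and *Ppp1r15a* (7.56 CPM) have means slightly above the control means of 27.1 and 7.12 CPM; *Crebrf* runs the other way, from 154 CPM in controls to 88.0 CPM on day 13 and 196 CPM under rapamycin; the day 8 mice split in *Hspa5* and *Xbp1*.

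The day 8 mice split in the same way across most of the 32 genes. In 27 of 32 genes (84.4%) the 2 highest of the 4 day 8 values were those of mice A and C, which was so in 22.3% of all tested genes. Other groups also had a leading pair: control mice A and B were the 2 highest in 16 of 32 genes (50%; all tested genes, 16%), and day 6 mice B and D in 12 (37.5%; all tested genes, 19.9%). The library names put A with B and C with D, so this split does not follow the number series. *Gfap*, 1 of 5 astrocyte markers followed, was at 673 and 889 CPM in mice A and C and at 126.02 and 158 CPM in mice B and D, against 163 to 210.2 CPM in controls. The astrocyte markers did not move as a set. Against control, 0 of the 5 were called higher and 1 lower on day 8 (all genes, 3.99% called). On day 13 1 was called higher and 1 lower (all genes, 16.5%). On day 13 the 2 highest values were those of mice A and B in 21 of 32 genes (65.6%; all tested genes, 27.8%). Mice A and B were also the most deeply sequenced of that group, with 69971957 and 126435936 counts, they share a number series, and they had the most *Gfap*, 741 and 1346 CPM against 365 and 431 CPM. Within day 8 the median SD of log2 CPM of the 32 genes was 0.160 and within day 13 0.201, against 0.0779 in controls and 0.0902 under rapamycin. Over all tested genes it was higher in each of these groups, at 0.199, 0.278, 0.149 and 0.178.

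With the low day 8 mice left out 1 at a time the day 8 count moved: without mouse B or without mouse D, 5 genes were called in place of 2, the additions being *Sdf2l1*, *Sec61a1* and *Sec61b* in both fits. These mice were picked as low in these same genes, so larger fold changes without them follow from that choice. *Sec61b* was also called without control mouse B (0.54) or control mouse D (0.55). *Herpud1* and *Ppp1r15a* kept an adjusted p under 0.05 in all 16 alternatives tried on day 8, with log2 fold changes from 0.88 to 1.14 and from 0.62 to 0.82. Leaving out any 1 mouse gave between 8 and 10 called genes on day 13.

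The step from day 6 to day 8 gave 0 called genes of 32 in edgeR's test (all genes, 0.229%), with 6 at an unadjusted p under 0.05 (all genes, 17.1%). DESeq2 called 2 there, *Herpud1* and *Ppp1r15a*. Without day 8 mouse D, edgeR called these 2 as well, and without day 8 mouse B or C it called *Herpud1*. The step from day 8 to day 13 gave 0 of 32 in edgeR's 2-group test, as it did over all tested genes (0%), and 0 in DESeq2. An unadjusted p under 0.05 was found for 7 (all genes, 14.1%), and a fit of all 24 mice called *Ppp1r15a*, at 0.94 (edgeR adjusted p = 0.00592). The lowest adjusted p of the 32 genes in the 2-group test was 0.303, so none passed there, although more genes were called against control on day 13 than on day 8.

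At any size of change the picture was broader. On day 13, 15 of the 32 genes were higher and 2 lower with an adjusted p under 0.05 (all genes, 15.6% higher and 11.3% lower), and in 14 genes all 4 day 13 mice lay above all 4 controls (all genes, 15.2%). Under rapamycin, 8 were lower than control and 1 higher (all genes, 2.31% and 1.26%), and in 12 genes all 4 mice lay below all controls (all genes, 6.74%). The 8 lower ones were *Calr*, *Canx*, *Pdia3*, *Pdia4*, *Pdia6*, *Hsp90b1*, *Sdf2l1* and *Sel1l*, by log2 fold changes from -0.54 to -0.22. The higher one was *Crebrf*. With a mouse left out, the adjusted p reached 0.05 or more in 6 of 8 fits for *Canx*, *Pdia4* and *Sdf2l1*. It did so in 5 for *Pdia6* and in 3 for *Pdia3*. For *Calr*, *Hsp90b1*, *Sel1l* and *Crebrf* it stayed under 0.05 in all 15 alternatives.

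**Figure D3:**
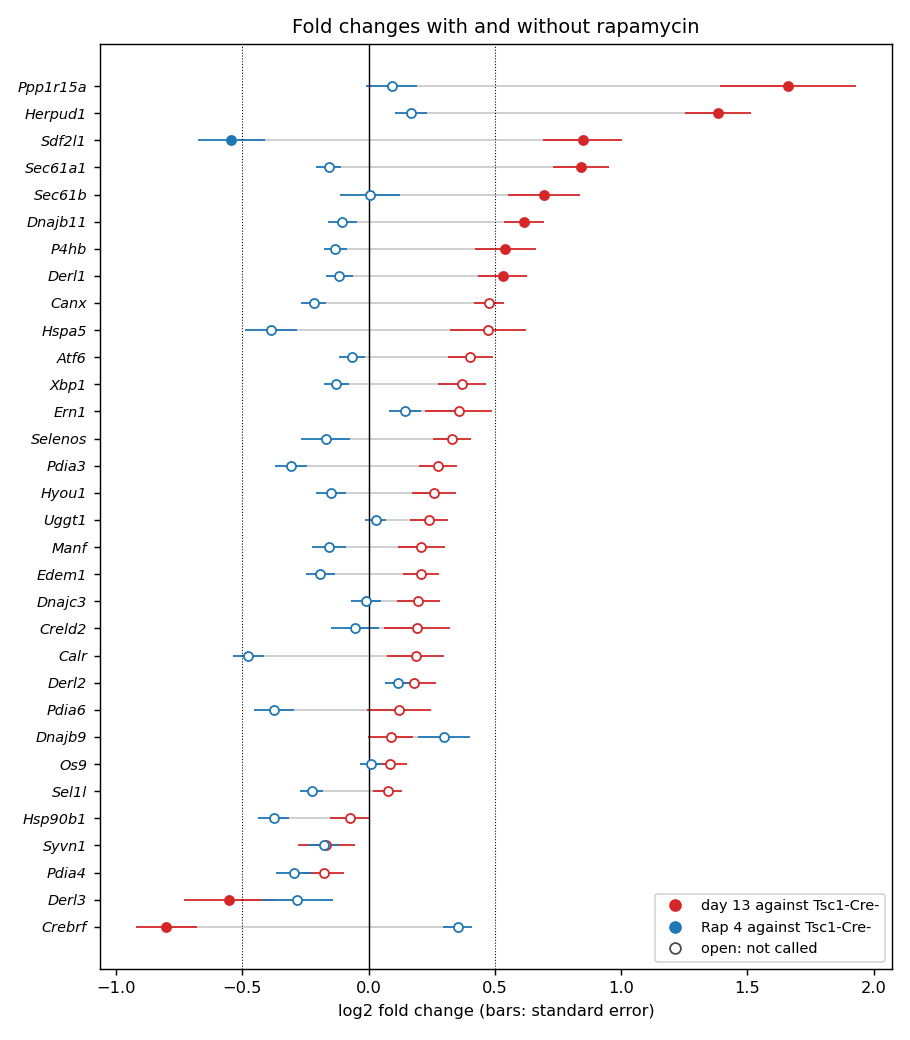
Log2 fold change of each gene (rows, ordered by the day 13 value) against *Tsc1-Cre-* on day 13 (red) and in *Tsc1-Cre+*-Rap 4 mice (blue), with standard errors; filled points were called, and dotted lines mark the size threshold of 0.5. Both contrasts share the same 4 control mice. The blue points lie below 0 for 23 genes (all genes, 51.4% above 0), down to -0.54 for *Sdf2l1*, and *Crebrf* stands at the opposite end on each.

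On day 13, the 9 genes with the ER stress element in their promoter, element II aside, were not those with the largest changes. Of the 9 carriers, 0 were called higher and 1 lower (*Derl3*), and their log2 fold changes ran from -0.55 to 0.48 with a median of 0.19. At an adjusted p under 0.05 and any size of change, 2 of the 9 were higher and 1 lower. The 2 carriers of element II, *Herpud1* and *Dnajb11*, both rose, by 1.38 and 0.62. The 16 genes with neither element had a median of 0.26, and 4 of them were called higher and 1 lower (all genes, 16.5% called in either direction). At an adjusted p under 0.05 and any size of change, 8 of the 16 were higher and 1 lower. The 5 genes without a promoter in the search were *Atf6*, *Derl1*, *Hyou1*, *Manf* and *Sec61a1*. They had a median of 0.40, and 2 of them were called higher. Against control under rapamycin, 4 of the 5 lowest log2 fold changes were those of carriers, *Calr* (-0.48), *Hspa5* (-0.39), *Hsp90b1* (-0.38) and *Pdia6* (-0.37), none of them called. There the median of the 9 carriers was -0.28, with 4 lower at an adjusted p under 0.05, that of the 2 carriers of element II 0.03, and that of the 16 others -0.06. These are counts over few genes, and no test of a difference between them was made.

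**Figure D4:**
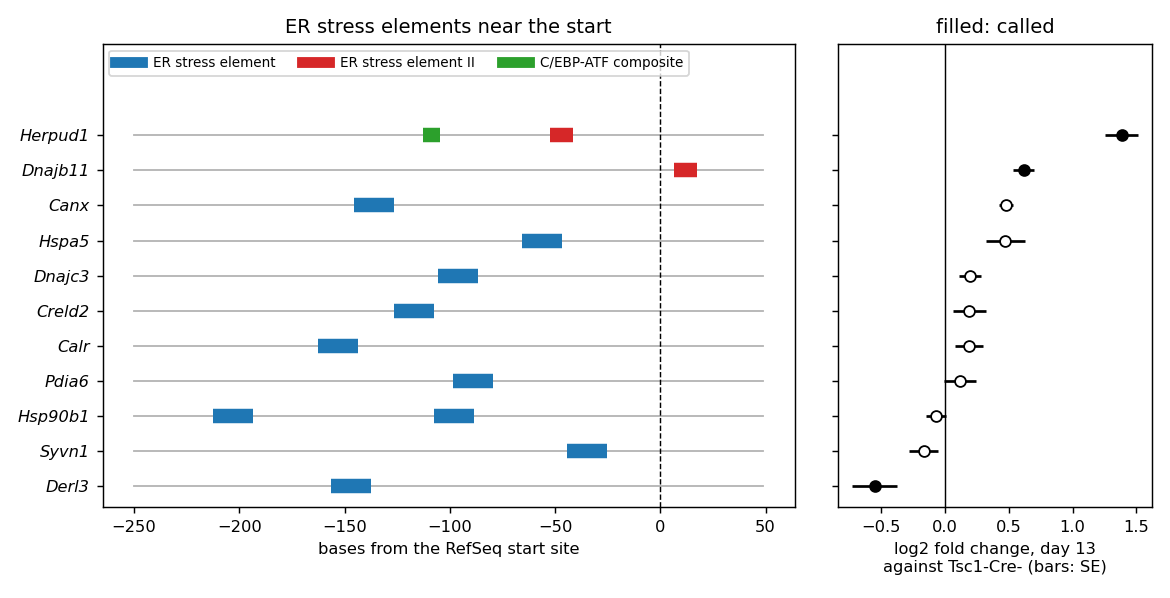
Left, position of each element in the RefSeq promoters of the 11 genes that carry one, in bases from the start site (dashed line). Right, the day 13 log2 fold change of the same gene against control with its standard error, filled where called. The 2 genes with element II (red) are at the top, and the carriers of the ER stress element (blue) run from *Canx* at 0.48 down to *Derl3* at -0.55.

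Another 76 genes of ER protein handling, in 4 lists, were counted beside these. Against control, edgeR called 0 on day 4 and 0 on day 6, with 16 and 18 at an unadjusted p under 0.05 (all genes, 18.4% and 24.2%). It called 1 on day 8 (1.32%; all genes, 3.99%) and 12 on day 13 (15.8%), close to the 16.5% of all genes called in either direction, though each of the 12 was higher (all genes called higher, 8.4%). Under rapamycin it called 1, lower (1.32%; all genes, 1.41%). By list, the day 13 count was 3 of 7 other sensors and proteases, 5 of 22 genes of translocation and entry, 3 of 21 of ERAD and 1 of 26 folding factors. The largest rise was that of *Creb3l1*, a membrane-bound transcription factor related to ATF6, at 0.87 on day 8 and 1.77 on day 13 (standard error 0.369, edgeR adjusted p = 0.00826), from a mean of 0.8287 CPM in controls to 2.80 CPM on day 13. *Creb3l2*, its relative, rose by 0.87 and *Ube2g2*, a ubiquitin-conjugating enzyme of ERAD, by 0.85 (edgeR adjusted p = 0.0293 and 0.00116). The fall called under rapamycin was that of *Serpinh1*, a collagen chaperone (-0.55, edgeR adjusted p = 0.0354). Among the translocation genes, all 22 had a day 13 log2 fold change above 0 (all genes, 46.6%).

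Markers of the cell types that the tissue could hold were followed beside these genes. Neuronal markers were abundant, with 8 genes summing to 4550.4 to 6360.3 CPM over all mice. Markers of plasma and B cells, which are rich in ER, summed to 0.520 to 1.33 CPM over all 24 mice, and those of T cells to at most 0.248 CPM, with *Cd3d* or *Cd3g* at 0 in some groups. The 5 astrocyte markers summed to 1053 to 1096 CPM in controls, 827 to 1658 on day 8, 1131 to 2072 on day 13 and 839.8 to 887 under rapamycin. Of them 1 rose and 1 fell on day 13, and 2 fell under rapamycin against control. The 5 fibroblast markers summed to 20.1 to 46.9 CPM in controls, 40.6 to 78.6 on day 13 and 16.8 to 37.9 under rapamycin, with 1 called higher and 1 lower on day 13.

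Of the other lists on day 13, 1 of 8 neuronal markers was called, higher (12.5%; all genes, 16.5%), and 0 of 5 microglial, 0 of 5 oligodendrocyte, 0 of 5 endothelial and 0 of 7 choroid plexus markers. Against control under rapamycin 2 of 5 microglial, 2 of 5 oligodendrocyte and 1 of 5 endothelial markers fell (all genes, 1.41% called). Between rapamycin and day 13 mice, 50% of the 32 genes were called (all genes, 21.1%). There, 3 of 5 astrocyte, 3 of 5 endothelial, 2 of 5 fibroblast, 1 of 5 microglial and 1 of 8 neuronal markers were lower under rapamycin. In the same comparison 1 astrocyte marker was higher. Choroid plexus markers varied within every group, from 60.3 to 1704 CPM in controls and from 39.0 to 425 CPM on day 13. With *Ttr*, the main choroid plexus transcript, as a covariate, 9 genes of the 32 were called on day 13 in place of 10. The part of the other cell types in these results was not tested.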

How the data were processed

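The authors trimmed reads with cutadapt 1.16.5, aligned them to mm10 with STAR 2.7.2b and counted them per gene with featureCounts 1.6.4, as the submitters' processing notes name these tools. The deposited values are raw counts per gene and mouse, without normalization. The strand and multimapping settings of the counting are not given in the sources used here, and counts of 2 were 2.15 to 2.56 times as frequent as counts of 1 in every library. Of the 32 genes, 22 share no exon sequence with another gene.

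From these counts, each comparison was fitted on its own 8 mice with edgeR 4.0.16 in R 4.3.3 (filterByExpr, TMM, quasi-likelihood F-test, Benjamini-Hochberg over all genes tested). Calls needed both an adjusted p below 0.05 and a log2 fold change beyond 0.5 in either direction. CPM were computed from library sizes scaled over all 24 mice. Mice were grouped by the labels. Each library is a separate mouse, so p-values set the difference between groups against the spread between mice. They do not cover differences between number series where group and series cannot be told apart. DESeq2 1.42.0, other filters and scalings, blocks, a *Ttr* covariate and the omission of each mouse were tried as alternatives, and the fits were tested on simulated counts.

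Every one of the 32 genes was named. Values by mouse were given for *Hspa5*, *Xbp1*, *Ern1*, *Atf6* and, in each role, up to 3 genes called on day 8 or day 13 with the largest change. From the 76 other genes, the 3 largest called rises and falls against control were named. The members and lists were chosen with earlier results of these data known. Promoter sequences came from RefSeq on GRCm38.p6.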

Additional observations from a re-analysis of the deposited data

Results flagged for a closer look

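In 8 of the 192 sets of 4 mice (32 genes in 6 groups), 1 mouse lay far from the other 3. Chance alone gives about 1 such set in 20. *Dnajb9* was at 23.9 CPM in rapamycin mouse D, against 17.4 to 18.3 CPM in the others. *Sec61b* was at 6.11 CPM and *P4hb* at 73.7 CPM in the same mouse, below the others at 7.47 to 7.70 and 75.5 to 75.7 CPM. *Herpud1* was at 24.9 CPM and *Selenos* at 17.4 CPM in control mouse A, below the others at 27.6 to 28.1 and 18.8 to 18.9 CPM. In day 6 mouse D *Pdia3* was at 120.4 CPM, above 109 to 110.0 CPM, and *Sec61a1* at 53.3 CPM, below 54.7 to 54.9 CPM. *Os9* was at 93.9 CPM in day 4 mouse A, above 91.0 to 91.2 CPM.

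For 16 of the 32 genes (50%) the effect against control differed between rapamycin and day 13 mice (all genes, 21.1%). This was tested as the direct comparison of the 2 groups by edgeR. The difference in log2 fold change was -1.58 for *Ppp1r15a*, -1.40 for *Sdf2l1*, -1.23 for *Herpud1*, -1.01 for *Sec61a1*, -0.87 for *Hspa5* and -0.73 for *Dnajb11*. It was -0.71 for *Canx*, -0.70 for *Sec61b*, -0.68 for *P4hb*, -0.67 for *Calr*, -0.66 for *Derl1* and -0.59 for *Pdia3*. It was -0.51 for *Selenos* and *Xbp1*, -0.50 for *Pdia6*, and 1.14 for *Crebrf*, the 1 gene with the higher level under rapamycin.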

How the results depend on the processing

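With no minimum fold change, 2 of the 32 genes were called on day 4, 5 on day 6 and 7 on day 8. There were 17 on day 13 and 9 under rapamycin against control. Over all genes, the shares higher and lower were 2.61% and 1.56% on day 4 and 6.24% and 3.81% on day 6. They were 8.41% and 4.87% on day 8, 15.6% and 11.3% on day 13, and 1.26% and 2.31% under rapamycin. With a log2 minimum of 1, the counts were 1 on day 8, 2 on day 13, 0 under rapamycin against control and 5 against day 13. The share of all genes at that minimum was not counted. The call of *Sdf2l1* under rapamycin was lost (0 called) in a fit of all 24 mice and with *Ttr* as a covariate. From day 6 to day 8, 2 genes were called by DESeq2, 2 without the filter on low counts and 1 in a fit of all 24 mice, and from day 8 to day 13 1 in a fit of all 24 mice. With each mouse left out, the counts ran from 0 to 0 on day 4, 0 to 1 on day 6 (1 without day 6 mouse B), 2 to 5 on day 8 (5 without day 8 mouse B or D) and 8 to 10 on day 13. They ran from 0 to 2 under rapamycin against control (0 without control mouse A, B or C or rapamycin mouse B or C, 2 without control mouse D), 13 to 16 against day 13, 0 to 2 from day 6 to day 8 and 0 to 0 from day 8 to day 13. Mice with the same letter did not deviate together (correlations from -0.24 to 0.13). With the replicate block, 9 genes were called on day 13 and 14 under rapamycin against day 13, and the other counts were as without it. Of 952 alternatives for the 63 single-gene results at an adjusted p under 0.05, 826 kept direction and threshold, the rest kept direction with an adjusted p of 0.05 or more and 0 changed direction. The cause of these changes was not tested. *Derl3* had the lowest level of the 32 genes, at 1.39 to 2.701 CPM in control and day 13 mice.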
